A study of Arabidopsis thaliana with 8 samples.

Results

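A group of 83 genes was picked out of the Arabidopsis thaliana root array data because each stood far higher in differentiating xylem than in phloem or cortex and is known in the array annotation only by its locus tag. The members were chosen by their measured levels on these same arrays. They are single-gene probe sets whose xylem mean of log2(intensity + 16) exceeded both the phloem mean and the cortex mean by at least 4, which is 16-fold on that scale, and AT1G66810 was left out by the rule. They are 83 of 22746 probe sets tested, or 0.365%, and 0.696% of the 11933 probe sets named by a locus tag alone. All 83 probe sets matched a different protein-coding gene in RefSeq. Of the probe sets with a gene symbol, 9 of 1580 (0.57%) passed the same limit, as did 82 of 8730 (0.939%) that the annotation does not list.

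The arrays came from protoplasts of 6-day-old wild-type Columbia seedlings grown at 22 degrees Celsius, made from root tips of about 1 cm and sorted by green fluorescent protein. The arrays number 3 for differentiating xylem, 2 for phloem (sieve cells and companion cells together) and 3 for cortex, and the labels name each array a biological replicate. All of them share the wild-type background, protoplasting, sorting and a 2-cycle amplification of the RNA before labelling, and the fluorescent marker line behind each population is not named in the labels. In sorted populations, fewer cells of a type and less RNA per cell cannot be told apart.

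Xylem vessel elements carry water from the root to the shoot. While they differentiate they deposit a secondary wall of cellulose, xylan and lignin beneath the primary wall, and then die and lose their contents, so that the wall remains as a tube. NAC and MYB transcription factors switch this programme on, wall enzymes such as cellulose synthases, xylan glycosyltransferases, laccases and peroxidases carry it out, and proteases and nucleases act at its end. For 82 of the 83 members the annotation tables used here give no gene name, and AT4G08160 carries the synonym ATXYN3. One of those 82, AT5G51890, stood on a list of lignin and oxidative enzymes as PRX66, a class III peroxidase of the kind that oxidises lignin precursors. No role is stated for the other members.

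The labels were set beside markers of each cell type. The marker lists were chosen with earlier results of these data known, so this is no independent check. A listed gene is called measured where the annotation ties it to a single-gene probe set. Others may still have probe sets among the 8730 that the annotation does not list. Summed over 5 measured secondary wall genes, the intensity was 18423 to 20561 on xylem arrays, 509 and 511 on phloem arrays, and 774 to 1082 on cortex arrays. The 5 measured phloem genes summed to 129.9 to 174.9 in xylem, 3718 and 4298 in phloem and 279.9 to 338.8 in cortex, and the 4 cortex genes to 36.9 to 65.96, 111.3 to 112.01 and 3623 to 4575. Each of these 3 sums was highest in its own population, although single genes on the lists, such as the phloem gene OPS (AT3G09070) and the cortex gene AT1G62500, passed in none of the 3 contrasts between populations. The 2 measured root hair markers, EXPA7 and EXPA18, summed to 18.1 to 53.0 in xylem, 270.2 and 399.8 in phloem and 94.2 to 133.0 in cortex, highest in phloem. The 2 measured endodermis markers, SGN3 and AT1G61590, summed to 90.0 to 97.1 in xylem, 268.2 and 301.9 in phloem and 465.1 to 735.3 in cortex. This sum was highest in cortex, although AT1G61590 alone was brightest on the phloem arrays. Across probe sets, which as genes of the same arrays are no independent replicates, Pearson's r was 0.949 to 0.984 within populations and 0.719 to 0.79 between xylem and the others. Xylem replicate 2 had a GAPDH 3'/5' ratio of 2.63 against 1.53 and 1.82 in replicates 1 and 3, and an actin ratio of 9.69 against 5.26 and 5.54.

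The xylem differences of the members were set by the rule and are described here without a test. On every xylem array, each of the 83 genes was brighter than on any phloem or cortex array, an order that 12.1% of all tested probe sets showed and from which nothing is read, since the rule used it. The smaller of the xylem differences, against whichever other population was higher, had a median of 4.96 over the members and -0.37 over all tested probe sets. It lay from 4 to under 5 for 42 members, from 5 to under 6 for 23, from 6 to under 7 for 14, and at 7 or more for 4. Together the members held 3.2% to 4.4% of the total intensity of each xylem array, 0.0689% and 0.0769% of the phloem arrays, and 0.0303% to 0.033% of the cortex arrays.

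**Figure D1:**
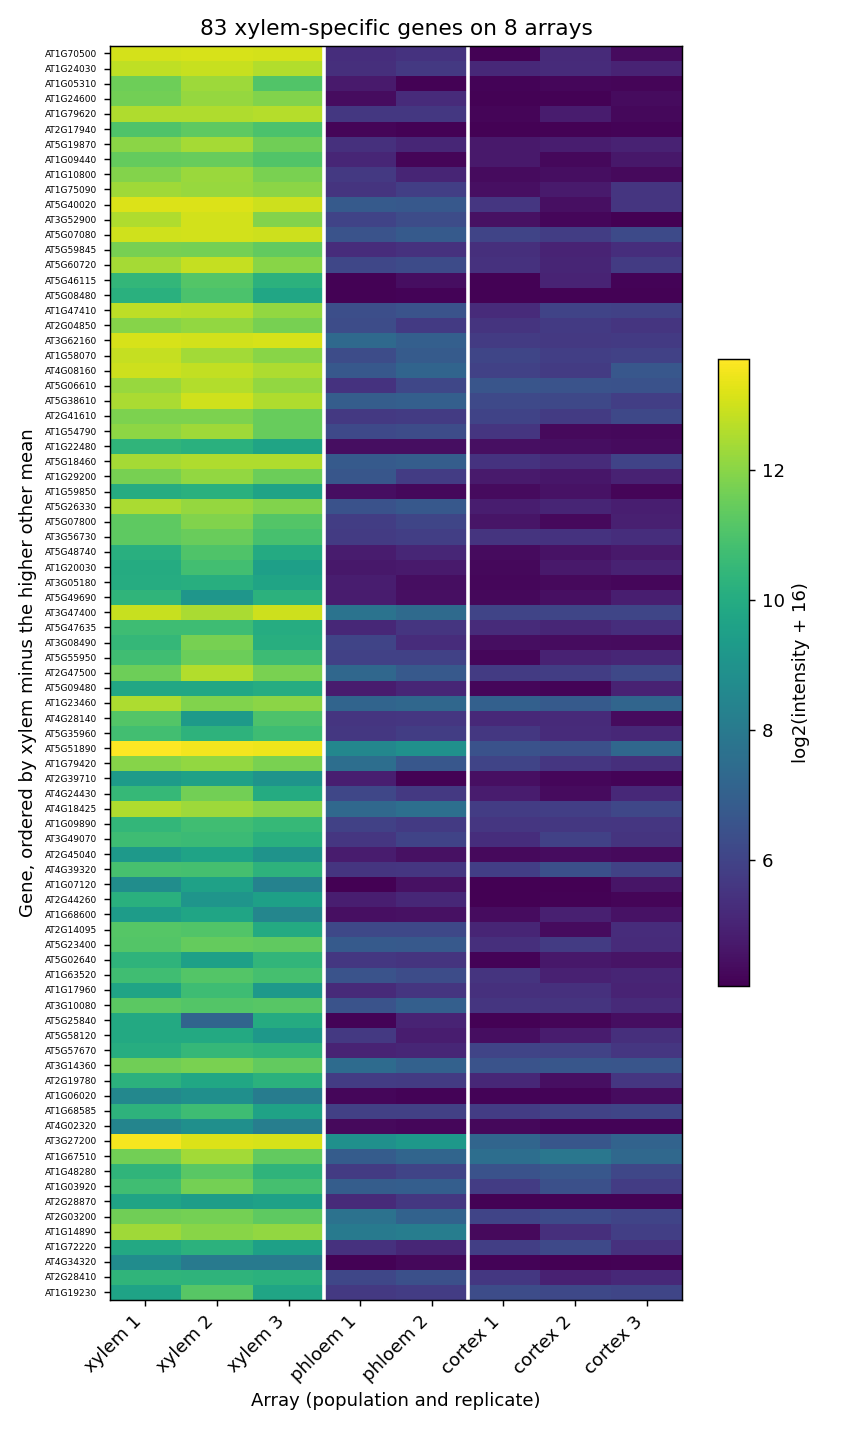
Heat map of log2(intensity + 16) for the 83 members (rows, from the largest to the smallest xylem difference) on 8 arrays (columns). The 3 xylem columns are bright throughout, the 2 phloem columns are dark with a few lighter rows such as AT5G51890, AT3G27200 and AT1G14890, and the 3 cortex columns are dark.

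The largest xylem difference belonged to AT1G70500. Its intensity was 8627, 8899 and 8496 in xylem, 23.5 and 27.6 in phloem and 1.47, 20.4 and 4.08 in cortex, so the xylem mean exceeded phloem by 7.71 (SE 0.29) and cortex by 8.54 (SE 0.26) on the log2(intensity + 16) scale. AT1G24030 followed with 7021, 7463 and 6131 in xylem, 25.1 and 34.0 in phloem and 19.6, 21.8 and 16.6 in cortex. Both genes were even across the xylem arrays, with no overlap between populations.

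AT1G05310 stood at 3047, 5017 and 2153 in xylem, 10.9 and 1.45 in phloem and 1.82, 2.78 and 2.08 in cortex. AT1G24600 had 3195, 4608 and 3756 in xylem, 4.69 and 22.0 in phloem and 1.25, 1.15 and 4.02 in cortex. For these 2 genes xylem replicate 2 was the brightest array and the other populations lay near the added 16 or under it, where intensities are not shown to exceed background because the file holds no detection calls. AT2G17940 lay far under the added 16 on every phloem and cortex array, with 2102, 2493 and 1978 in xylem, 2.25 and 1.46 in phloem and 1.26, 1.29 and 1.74 in cortex. AT1G79620 was steadier in phloem, with 5905, 5910 and 6272 in xylem, 32.8 and 33.1 in phloem and 2.22, 11.8 and 3.03 in cortex.

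The remaining members complete the 10 largest differences. AT5G19870 had 4109, 5402 and 3060 in xylem, 25.4 and 17.7 in phloem and 10.5, 12.4 and 15.3 in cortex. AT1G09440 had 2682, 2771 and 2149 in xylem, 17.7 and 2.00 in phloem and 10.5, 2.98 and 9.41 in cortex. The phloem arrays of AT5G19870 lay just above its cortex arrays, those of AT1G09440 overlapped them, and neither gene passed between these populations (limma adjusted p = 0.32 for AT5G19870). AT1G10800 had 3846, 4832 and 3421 in xylem, 34.0 and 17.1 in phloem and 4.17, 5.29 and 3.58 in cortex, with a phloem level above all cortex arrays. AT1G75090 had 5147, 4748 and 4141 in xylem, 29.7 and 40.8 in phloem and 5.79, 10.9 and 30.0 in cortex, where cortex replicate 3 reached the lower phloem array. The order of these genes rests on the added 16: with a pseudocount of 1, 7 of the 10 remained among the first 10, and AT2G17940 (9.59), AT1G05310 (9.21) and AT5G08480 (8.91) led. AT5G08480 had 1142, 1974 and 846 in xylem, 1.27 and 1.93 in phloem and 1.25, 1.46 and 1.29 in cortex.

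**Figure D2:**
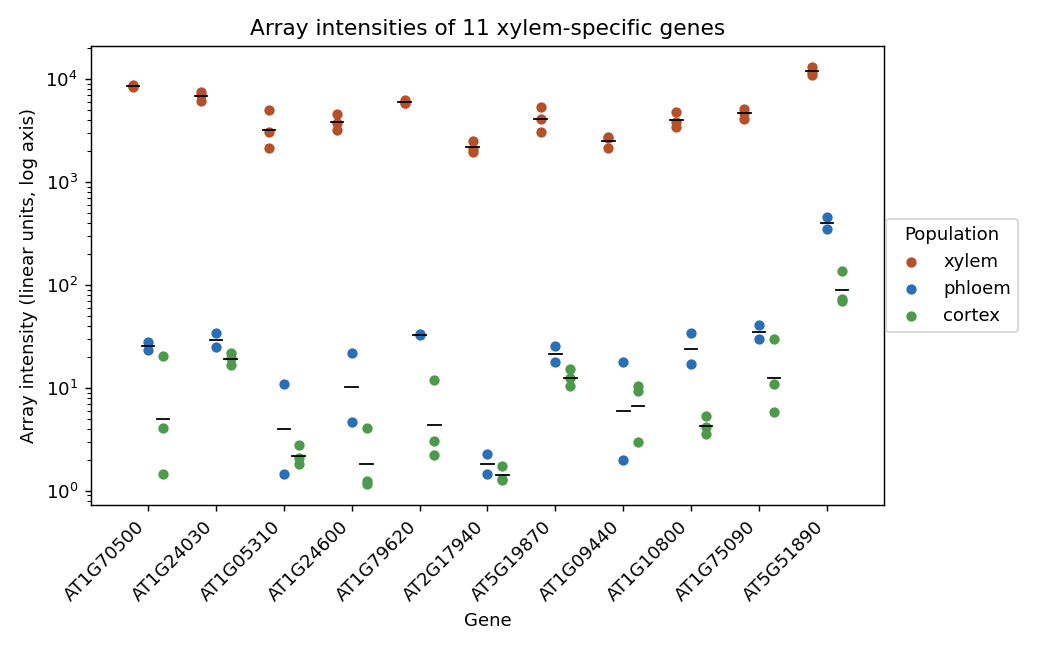
Array intensities (linear units on a log axis) of the 10 members with the largest xylem difference and of the peroxidase gene AT5G51890. Each point is 1 array, with xylem, phloem and cortex side by side from left to right, and black bars are geometric means. Xylem arrays lie at 1978 or above for every gene shown, and phloem arrays stay under 41 except for AT5G51890 at 353 and 455.

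Mean xylem intensities of the members ran from 294 to 12079 with a median of 2265, but probe sets differ in how strongly they bind, so levels of different genes are not ranked here. The peroxidase gene AT5G51890 had 13251, 11881 and 11105 in xylem, 353 and 455 in phloem and 72.4, 69.6 and 138 in cortex. AT3G27200 had 12035, 9408 and 8890 in xylem, 462 and 572 in phloem and 130, 82.0 and 124 in cortex. Both genes had phloem arrays above all their cortex arrays, and their xylem means exceeded phloem by 4.85 (SE 0.27) and 4.24 (SE 0.23) and cortex by 6.84 (SE 0.24) and 6.32 (SE 0.21).

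AT3G62160 had 8944, 8451 and 8770 in xylem, 146 and 111 in phloem and 37.0, 34.9 and 35.2 in cortex. AT5G40020 had 9272, 9301 and 7935 in xylem, 93.6 and 88.0 in phloem and 31.7, 6.04 and 30.8 in cortex. AT4G08160, the gene with the synonym ATXYN3, had 7882, 7250 and 5819 in xylem, 87.7 and 127 in phloem and 44.7, 37.7 and 85.7 in cortex. In AT3G62160 and AT5G40020 every phloem array lay above every cortex array, and in AT4G08160 the margin between them was 87.7 against 85.7.

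At the limit itself the values were AT1G19230 (4.01), AT2G28410 (4.02) and AT4G34320 (4.04) just inside, and AT2G24240 (3.9988), AT5G06670 (3.995) and AT3G15220 (3.992) just outside. AT4G34320 had 408, 238 and 236 in xylem, 1.46 and 3.20 in phloem and 1.79, 0.951 and 1.46 in cortex. AT1G19230 owed its place to xylem replicate 2, with 786, 2297 and 827 in xylem, 34.6 and 37.9 in phloem and 63.0, 54.8 and 50.8 in cortex. AT2G24240, outside, had 2965, 3859 and 1923 in xylem, 148 and 174 in phloem and 139, 89.4 and 96.5 in cortex. The members just inside and the genes just outside thus differ by hundredths of a log2 unit.

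The dependence of membership on single arrays was then described. The rule was applied without 1 array, and a difference was then taken in that array. A left-out xylem array was set against the higher of the phloem and cortex means. A left-out phloem or cortex array was set against the xylem mean alone, so its counts are not comparable with the xylem counts. Those means had been used in choosing the genes, so only 1 side of each difference is new, and the counts are no independent test. Of the genes chosen without a xylem array, 77 of 82 still differed by at least 4 in it for replicate 1, 73 of 79 for replicate 2 and 67 of 93 for replicate 3. The counts were 79 of 84 and 79 of 85 for phloem replicates 1 and 2, and 82 of 83, 79 of 84 and 81 of 81 for cortex replicates 1, 2 and 3. Among the xylem arrays, replicate 3 gave the lowest share, 72%, with a median difference of 4.69 in that array, against 5.17 and 5.48 for replicates 1 and 2. Choosing without replicate 3 also gave the largest set, 93 genes, of which 82 are among the 83.

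The rule set no direction between phloem and cortex, although it kept both means at least 4 under the xylem mean. The contrast of phloem against cortex asks whether genes this strongly tied to xylem also differ between the populations in which they are low. More of them were higher in phloem. With limma across all probe sets and Benjamini-Hochberg adjustment at 0.05, 29 of the 83 members were higher in phloem than in cortex (34.9%), where 12.2% of all tested probe sets were, and 2 were lower (2.41%), where 14.8% were. In either direction 31 members passed (37.3%) against 27.0% of all tested probe sets. Among the 18388 probe sets no brighter in phloem and cortex than the members reach, 20.2% passed, 10.3% higher in phloem and 9.86% lower. The brightest member, AT3G27200 with a phloem mean intensity of 517, set that ceiling. The members' median was 36.9 in phloem and 19.4 in cortex, so these probe sets are not matched to the members in level. The median phloem minus cortex difference was 0.63 over the members and -0.03 over all tested probe sets, and 70 of 83 members were above 0. After spike-in scaling 20 were higher and 7 lower, so that higher calls made up 74.1% of the members' calls against 93.5% with the values as deposited. That scaling moved the median of all tested probe sets to -0.44, and the members' median stood 0.64 above it, against 0.65 above it as deposited. RNA quality signs and markers of other cell types moved with this contrast, not all in the same direction. The GAPDH 3'/5' ratio was 1.77 and 2.15 in phloem and 1.21 to 1.49 in cortex, and the actin ratio 7.48 and 8.64 in phloem and 5.21 to 6.31 in cortex, without overlap. The ubiquitin ratio ran the other way, at 2.085 and 2.456 in phloem and 2.655 to 2.806 in cortex, also without overlap. EXPA7 (AT1G12560) and EXPA18 (AT1G62980), expansins of root hair cells, were 1.38 (SE 0.32) and 1.29 (SE 0.30) higher in phloem. Of the listed endodermis genes, SGN3 (AT4G20140) differed by -1.77 (SE 0.23) and AT1G61590 did not pass, at 0.70 (SE 0.34). The part of any of these in the members' difference was not tested. Without phloem replicate 1 the counts were 18 higher and 0 lower (limma, with 30 higher and 1 lower at an unadjusted p under 0.05).

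**Figure D3:**
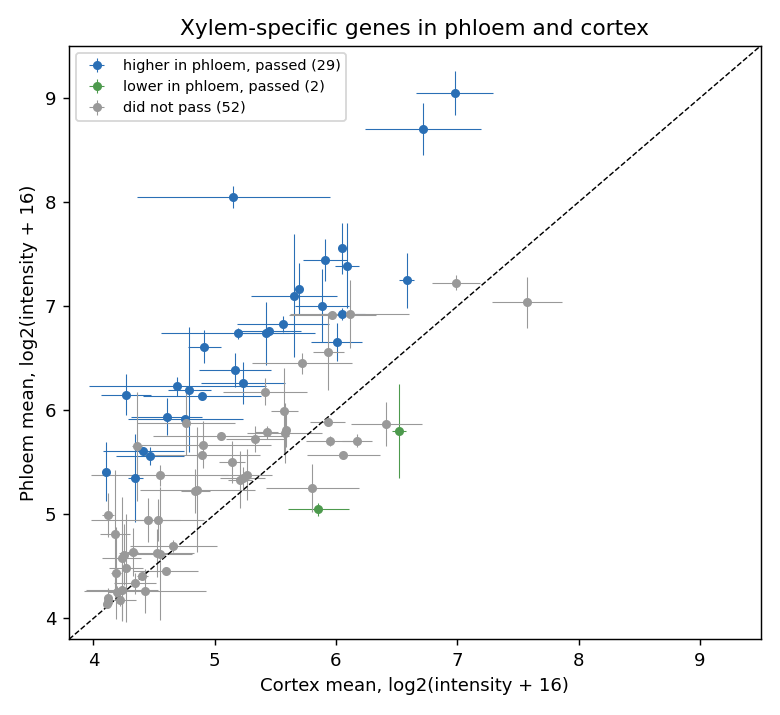
Mean log2(intensity + 16) of the 83 members in phloem (vertical axis, n = 2 arrays) against cortex (horizontal axis, n = 3), with SDs as bars and the dashed line marking equal levels. The 29 genes that passed higher in phloem lie above the line and the 2 that passed lower lie below it. Of the 52 that did not pass, many lie near the line and at the low end. Some lie well above it, such as AT3G08490 at 1.29.

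The largest phloem difference was that of AT1G14890, with 5162, 4015 and 4477 in xylem, 235 and 262 in phloem and 3.47, 24.7 and 41.1 in cortex. It was 2.89 (SE 0.38) higher in phloem than in cortex on the log2 scale (limma adjusted p = 0.000699), and its cortex arrays were spread widely. AT3G27200 was 2.07 (SE 0.23) higher in phloem (limma adjusted p = 0.000241) and AT5G51890, the peroxidase gene, 1.99 (SE 0.27) higher (limma adjusted p = 0.000737). All phloem arrays of these 3 genes lay above all their cortex arrays, an order that 50 of 83 members showed and 25.9% of all tested probe sets.

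AT3G52900 had 5956, 8339 and 3840 in xylem, 48.5 and 62.2 in phloem and 6.55, 2.82 and 0.936 in cortex, a difference of 1.88 (SE 0.31) between phloem and cortex (limma adjusted p = 0.00211). AT5G26330 had 5708, 4604 and 3721 in xylem, 74.3 and 89.6 in phloem and 12.02, 17.5 and 13.2 in cortex, a difference of 1.70 (SE 0.21) (limma adjusted p = 0.000491). Both were brighter on every phloem array than on any cortex array, although their phloem level was 0.916% and 1.75% of their xylem level. The smallest adjusted p among members was 0.000215, for AT3G62160 at 1.47 (SE 0.16). Of the 29 genes higher in phloem, 26 were higher by at least 1 on the log2 scale.

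The 2 genes lower in phloem were AT5G57670 and AT5G06610. AT5G57670 had 1060, 1400 and 1252 in xylem, 16.1 and 18.1 in phloem and 49.7, 46.4 and 31.4 in cortex, and differed by -0.81 (SE 0.21) (limma adjusted p = 0.0217). AT5G06610 had 4707, 6107 and 4422 in xylem, 28.7 and 53.6 in phloem and 79.5, 76.0 and 72.3 in cortex, and differed by -0.72 (SE 0.23) (limma adjusted p = 0.0455). In both genes every phloem array lay below every cortex array, as in 7 of 83 members and 30.5% of all tested probe sets. The call of AT5G57670 was lost without either phloem array, without cortex replicate 1 or 2 and with a pseudocount of 64, and that of AT5G06610 was lost under 8 alternatives.

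Within each gene, the phloem and cortex levels were also set against the xylem level. Phloem intensity was 0.0847% to 5.47% of xylem intensity over the members, with a median of 1.59%, and cortex intensity was 0.0556% to 4.77%, with a median of 0.705%. Where intensities lie near or under 16 these shares are uncertain, since such values are not shown to exceed background. Of the 5 measured secondary wall genes, all of them linked to xylan, 2 passed lower in phloem than in cortex (14.8% of all tested probe sets did). IRX15-L (AT5G67210) and IRX10-L (AT5G61840) were lower, at -1.36 (SE 0.28) and -0.91 (SE 0.16), and IRX10 (AT1G27440) differed by 0.12 (SE 0.19). Of the 3 that did not pass, TBL34 (AT2G38320), a xylan acetyltransferase, came nearest at 0.47 (SE 0.17) (limma adjusted p = 0.0825), and IRX15 (AT3G50220) differed by 0.203 (SE 0.20). On the lignin and oxidative enzyme list 4 of 5 measured genes passed higher in phloem than in cortex and 0 lower, where 12.2% of all tested probe sets passed higher: HCT, AT5G51890 and the peroxidase genes AT5G66390 and AT4G33420, of which the last 2 were not higher in xylem than in phloem. Of the 2 measured regulators 1 passed higher. No difference between the lists was tested. Whether xylem RNA among the phloem arrays plays a part in the members' phloem levels was not tested.

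Probe sets past the same limit outside the locus-tag group showed similar counts in this contrast. Of the 82 that the annotation does not list, 32 (39.0%) were higher in phloem and 5 (6.1%) lower, with a median difference of 0.58. Of the 9 with a symbol, 3 were higher and 1 was lower. No test was made between these classes and the members.

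Within xylem the members varied in a shared direction. Xylem replicate 2 was the brightest of the 3 xylem arrays for 53 of 83 members (63.9%), and replicate 3 was the dimmest for 58 (69.9%). Among the 4496 tested probe sets within the members' range of xylem levels the pattern ran otherwise: replicate 2 was the brightest for 24.9% and the dimmest for 58.5%, and replicate 3 the dimmest for 30%. The median of replicate 2 minus the mean of replicates 1 and 3 was 0.28 on the log2 scale over the members and -0.21 over those probe sets. Unlisted probe sets past the same limit were brightest in replicate 2 in 52 of 82 cases, and those with a symbol in 6 of 9. Like the members, they were chosen by the same xylem values, so their counts are no independent support. The 4496 probe sets did not have to pass the limit, and the part of that choice in the pattern was not tested. The count of members brightest in replicate 2 was 61 with quantile normalization, 62 with spike-in scaling and again 53 with median centring. The count with replicate 3 dimmest was 58 as deposited and with median centring, 52 with quantile normalization and 40 with spike-in scaling. Replicate 2 is the array with the highest GAPDH and actin 3'/5' ratios, and the part of RNA quality in this pattern was not tested. Over replicates 1, 2 and 3 the summed secondary wall list stood at 20561, 20463 and 18423, the lignin and oxidative enzyme list, which includes AT5G51890, at 17920, 18807 and 15486, and the regulators at 2692, 2735 and 2572. The sums were lowest in replicate 3 for all 3 lists and highest in replicate 2 for the last 2.

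**Figure D4:**
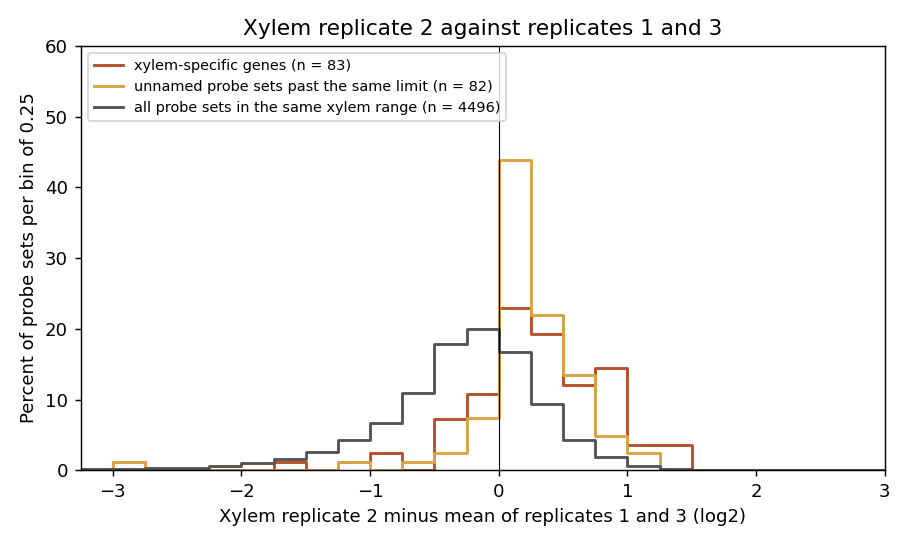
Distribution of xylem replicate 2 minus the mean of xylem replicates 1 and 3 (log2, bins of 0.25, percent of probe sets in each bin) for the 83 members, for 82 unnamed probe sets past the same limit and for 4496 probe sets in the same range of xylem levels. The first 2 lines lie mostly to the right of 0 and the third mostly to the left, with medians of 0.28, 0.202 and -0.21.

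The difference of replicate 2 from the other xylem arrays was large in some members, in both directions. AT1G19230 was furthest above in replicate 2, by 1.49, followed by AT3G08490 at 1.43, with 1395, 3321 and 1073 in xylem, 48.9 and 22.9 in phloem and 5.05, 4.54 and 3.95 in cortex. AT4G24430 was above by 1.41, with 1431, 3189 and 985 in xylem, 52.5 and 34.7 in phloem and 11.6, 4.37 and 19.7 in cortex. In these 3 genes replicate 2 was over 2 times as bright as either other xylem array. AT5G25840 was furthest below, by -2.79, with 952, 127 and 991 in xylem, 1.88 and 15.9 in phloem and 1.25, 2.07 and 5.31 in cortex. AT4G28140 was below by -1.74, with 2195, 619 and 2033 in xylem, 30.7 and 32.2 in phloem and 19.5, 20.7 and 4.33 in cortex. Even so, their lowest xylem array stood above every other array, by 2.17 for AT5G25840, the smallest such gap of any member, and by 3.72 for AT4G28140. The xylem arrays of a member spanned 1.05-fold (AT1G70500) to 7.80-fold (AT5G25840), with a median of 1.52-fold, and 18 of 83 spanned at least 2-fold.

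Other genes of the xylem programme give the setting. The 5 xylem lists cover secondary wall, lignin and oxidative enzymes, cell death, tracheary element formation and regulators. Of their 90 genes, the annotation tied 12 to a single-gene probe set, among them AT5G51890. The others were not found through the annotation, and may have probe sets that it does not list or ties to several genes. Of the 11 that are no members, 9 were higher in xylem than in cortex and 0 lower, where 42.6% of all tested probe sets passed and 13.5% were higher. Against phloem 8 were higher in xylem and 1 lower, where 42.4% passed and 13.9% were higher. Those higher in both comparisons were the 5 secondary wall genes, the regulators C3H14 (AT1G66810) and PHV (AT1G30490), and the lignin pathway enzyme HCT (AT5G48930). C3H14 exceeded the limit of 4, at 5.03, and is no member because the rule left it out. IRX10, TBL34, IRX15 and IRX15-L passed the same limit. The lists were also chosen with earlier results of these data known, so these counts are no independent support. The other class III peroxidase genes on the list did not share the pattern of AT5G51890. AT5G66390 (PRX72) had 562, 605 and 639 in xylem, 701 and 903 in phloem and 59.7, 149.5 and 123 in cortex, higher than cortex by 2.36 (SE 0.28) but differing from phloem by -0.396 (SE 0.31) (limma adjusted p = 0.351). AT4G33420 (PRX47) was the 1 listed gene that passed with less in xylem than phloem, by -3.92 (SE 0.37), with 69.0, 35.6 and 85.4 in xylem, 1037 and 1247 in phloem and 46.3, 82.3 and 121 in cortex. AT5G05340 (PRX52) lay between 1.88 and 27.7 in all populations.

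The genome positions of the members were compared with the RefSeq gene order, with no coordinates taken. Chromosome 1 held 30 of the 83 genes (36.1%), where it holds 26% of genes named by locus tag alone on the array, and chromosome 5 held 24 (28.9% against 22.6%). Chromosomes 2, 3 and 4 held 12 (14.5% against 16.5%), 10 (12% against 20.5%) and 7 (8.43% against 14.4%). One pair of members lay close together, AT1G68585 and AT1G68600, with 1 coding gene between them. AT1G68585 had 1225, 1668 and 766 in xylem, 43.6 and 43.0 in phloem and 39.1, 45.5 and 51.0 in cortex. AT1G68600 had 649, 825 and 343 in xylem, 5.91 and 6.10 in phloem and 4.59, 13.6 and 7.23 in cortex. Both were dimmest in xylem replicate 3 and brightest in replicate 2.

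Members next to a gene of the xylem lists numbered 2 of 83 (2.41%), where 0.713% of 10801 genes named by locus tag alone had such a neighbour. AT3G08490 is the direct neighbour of MYB83 (AT3G08500), a MYB regulator that turns on secondary wall genes, and AT1G17960 that of MYB52 (AT1G17950), also a wall-related MYB gene. Neither MYB gene was analysed here. AT1G17960 had 800, 1647 and 600 in xylem, 20.9 and 31.1 in phloem and 25.8, 25.9 and 16.4 in cortex. Within 10 coding genes on either side, 5 members (6.02%) had a listed neighbour, near the 6.33% of the background. Gene length over the members ran from 413 to 5434 bases, with a median of 1914 against 2090 for all genes named by locus tag alone. The probe set of AT1G23460 can also bind transcripts of related genes, and its values of 5750, 3724 and 4170 in xylem, 128 and 139 in phloem and 113, 94.2 and 129 in cortex may include them.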

How the data were processed

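Each deposited value is the linear intensity of 1 probe set on 1 array, for which the submitters' processing notes name MAS5 as the authors' tool. Its version and target value are not stated in the sources, and the file holds no detection calls. The files give no depth, so the number of arrays limits the precision. Of 22810 probe sets, 64 controls were left out.

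Members were found by their rule on log2(intensity + 16). The fit used limma 3.58.1 in R 4.3.3 on all 8 arrays, with 1 mean per population, an intensity trend, 5 residual degrees of freedom and Benjamini-Hochberg adjustment over 22746 probe sets within each contrast. It was tested on simulated data with changes set only in probe sets brighter than the median, so small differences at dim levels were not covered. Names came from the platform annotation and the RefSeq table of TAIR10.1, and genes are named through locus tags. Plots used matplotlib 3.10.9 in Python 3.11.15.

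The members, the lists of 110 genes and the tests were chosen with earlier results of these data known. Named genes were the 10 largest differences, list members, up to 5 passing phloem against cortex in each direction, and the 3 on each side of the limit. Other named genes (by intensity, by spread over the xylem arrays, by neighbourhood, and AT1G23460) were chosen after their values were seen. A planned grouping by role found 0 members with a matching name. Promoter motifs and protein features were not analysed here.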

Additional observations from a re-analysis of the deposited data

How the results depend on the processing

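The number of genes meeting the rule was 83 as described and within 1.5 times of that for a pseudocount of 1 (110), quantile normalization (96), median centring (123), spike-in scaling (67, chosen after seeing the data) and every xylem array 4 above every other array (57). It was 45 with a pseudocount of 64, 138 with a limit of 3 and 41 with a limit of 5, and 79 to 93 without 1 array. The members' median difference of 4.96 came to 5.92 and 4.05 with pseudocounts of 1 and 64, 5.70 with median centring and 4.68 with spike-in scaling. Members passing between phloem and cortex numbered 31, and 19 with a pseudocount of 64, all 19 of them higher in phloem and 0 lower (limma, with 26 higher and 2 lower at an unadjusted p under 0.05). Without 1 array they ranged from 18 to 36, with 18 to 34 higher and 0 to 2 lower, the lowest without phloem replicate 1. The number lower in phloem was 7 after spike-in scaling and 1 with only phloem and cortex arrays in the fit. Scaling moved the median phloem minus cortex difference of all probe sets from -0.03 to as low as -0.437 (spike-ins), and the members stood 0.52 to 0.65 above that median under every scaling. Of genes that did not pass, AT1G24030 came to -0.038 and AT2G17940 to -0.029 after spike-in scaling, AT1G05310 to -0.062 without phloem replicate 1 (range without 1 array -0.062 to 0.564), and AT1G09440 to -0.060, -0.14, -0.378 and -0.075 with a pseudocount of 1, spike-in scaling, and without phloem replicate 1 or cortex replicate 2 (range without 1 array -0.378 to 0.529), all turned in sign. The cause of these changes was not tested.

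Replicate numbers recur across the populations. Same-numbered arrays had deviations that correlated at -0.10 to 0.15 across probe sets, and differently numbered arrays at -0.16 to 0.19. With 2 or 3 arrays per population these overlapping ranges cannot tell whether the numbers mark pairs, and the main fit used no pairing. With a replicate block 30 members passed, 27 higher and 3 lower in phloem. The 9 listed genes passing in each xylem contrast numbered 9 or 10 under every alternative run. Intensities near the added 16 are not shown to exceed background, which limits all differences against the dimmest phloem and cortex values.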
